A study of Mus musculus with 11 samples.

Results

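The Hox genes of paralog groups 6, 7 and 8 examined here are Hoxb6, Hoxc6, Hoxa7, Hoxb7, Hoxb8, Hoxc8 and Hoxd8. A gene was measured where an array probe set carried its symbol alone, and the probe set with the highest mean stood for the gene. This gave 6 measured genes of the 7, with 9 probe sets between them, out of 18193 genes measured in all. Hoxb8 has no probe set of its own, since the 1 that lists it also lists Hoxb7, and it was not analysed here. Hoxa6, which belongs to the same paralog groups, has no such probe set either. The data are 11 Affymetrix arrays of motor neurons sorted by fluorescence from C57/BL6 embryos, all of which carried the Hb9::GFP reporter, a green fluorescent protein driven by the promoter of the motor neuron gene Mnx1. The embryonic stage and the number of embryos behind each sample are not given in the labels.

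Phrenic motor neurons, which drive the diaphragm, were marked by rhodamine dextran taken up through the phrenic nerve, and make up 4 arrays. Motor neurons of segments C3-C5 with the reporter and no dextran, here C3-C5 GFP-only, make up 4 arrays. Lateral motor column neurons that took up the dextran through the radial nerve, which supplies the forelimb, make up 3 arrays and are called LMC radial. The labels do not fully match on axial origin: the description field calls the C3-C5 samples rhombomere cells and the LMC radial samples LMLl cells, and the groups here follow the titles and the cell type field. The titles of the LMC radial samples name no spinal segment, so segment level and cell type cannot be told apart in any comparison with them. The labelling stands for the neurons whose axons reached that nerve in the explant, and the GFP-only group may hold motor neurons of several columns. The study set each cell type against the overall expression to find genes that mark phrenic neurons.

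Hox genes encode homeodomain transcription factors and lie in clusters, in which the order of the genes along the chromosome matches the order of their expression along the body axis. In the spinal cord the lower paralog groups are active in cervical segments, the middle groups at forelimb level and the higher groups at thoracic and lumbar levels. Hoxc6 is known for its part in making the lateral motor column that innervates the forelimb, and Hoxc8 for the motor pools of the caudal brachial cord, while the Hox5 proteins are known for their role in phrenic neurons.

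All levels are log2 values as the authors deposited them. The array medians lay between 4.48 and 4.63, so a value below 5 is treated as near background. Differences are log2 differences ± SE from a limma fit of all 11 arrays, and a gene passed where p adjusted over all 45037 tested probe sets was under 0.05. In bulk samples of this kind, fewer cells with a transcript and less transcript per cell cannot be told apart. The labels do not say that replicates came from separate embryos, so the p-values measure the spread between these arrays, which may be technical.

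The sorted cells carried the marker of the gate. Mnx1 averaged 8.14 ± 0.07 (SD, n = 3) on LMC radial, 9.01 ± 0.09 (n = 4) on phrenic and 9.07 ± 0.16 (n = 4) on C3-C5 GFP-only arrays. Foxp1, which marks limb-level lateral motor neurons, was highest in LMC radial (12.59 ± 0.04), followed by C3-C5 GFP-only (12.26 ± 0.14) and phrenic neurons (11.37 ± 0.24). Pou3f1, known from phrenic neurons, had the opposite order, at 11.42 ± 0.11 in phrenic, 10.71 ± 0.18 in C3-C5 GFP-only and 8.81 ± 0.24 in LMC radial neurons. The arrays fell into groups by the 25th percentile of their values. It lay between 3.18 and 3.20 on 4 arrays, which are replicates 2 and 3 of phrenic and of C3-C5 GFP-only neurons, and between 3.26 and 3.38 on the other 7, which include all 3 LMC radial arrays.

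Hoxc8 had the widest range of the genes examined. It was lowest in phrenic neurons, higher in C3-C5 GFP-only neurons and highest in LMC radial neurons. The phrenic arrays read 7.54, 6.60, 4.83 and 8.72 in replicates 1 to 4. C3-C5 GFP-only arrays read 11.45, 9.52, 9.86 and 11.10, and LMC radial arrays 12.46, 12.22 and 12.24. No array of one type reached the range of another. The means were 6.92 ± 1.64 (SD, n = 4), 10.48 ± 0.94 (n = 4) and 12.30 ± 0.13 (n = 3). LMC radial neurons exceeded phrenic neurons by 5.38 ± 0.76, or 41.7-fold (adjusted p = 0.00206), and this passed under every alternative that gave a value and with any single array left out. C3-C5 GFP-only neurons exceeded phrenic neurons by 11.8-fold, a log2 difference of -3.56 ± 0.71 for phrenic minus C3-C5 GFP-only (adjusted p = 0.0283). The step from C3-C5 GFP-only to LMC radial neurons, 1.82 ± 0.76, did not pass (adjusted p = 0.213) although the arrays did not overlap. It passed in a limma fit of these types only (1.82 ± 0.43, adjusted p = 0.0401) and with array weights (2.11 ± 0.55, adjusted p = 0.0277).

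The spread of Hoxc8 within a type was wide in phrenic and C3-C5 GFP-only neurons and narrow in LMC radial neurons, and it followed the array sets. Arrays of the higher set exceeded those of the lower set by 2.41 in phrenic and by 1.59 in C3-C5 GFP-only neurons, with 2 arrays a side in each. Within the higher set the means were 8.13 in phrenic, 11.28 in C3-C5 GFP-only and 12.30 in LMC radial neurons. Within the lower set they were 5.71 in phrenic and 9.69 in C3-C5 GFP-only neurons. The order of the types was the same in both sets, with phrenic minus C3-C5 GFP-only at -3.15 in the higher and -3.98 in the lower set. The phrenic against C3-C5 GFP-only call rests on single arrays, since leaving out C3-C5 GFP-only replicate 1, 3 or 4 gave an adjusted p of 0.0829, 0.0624 or 0.0937, and leaving out phrenic replicate 2 gave 0.0618. It was 0.116 within the 4 arrays of the lower set.

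**Figure D1:**
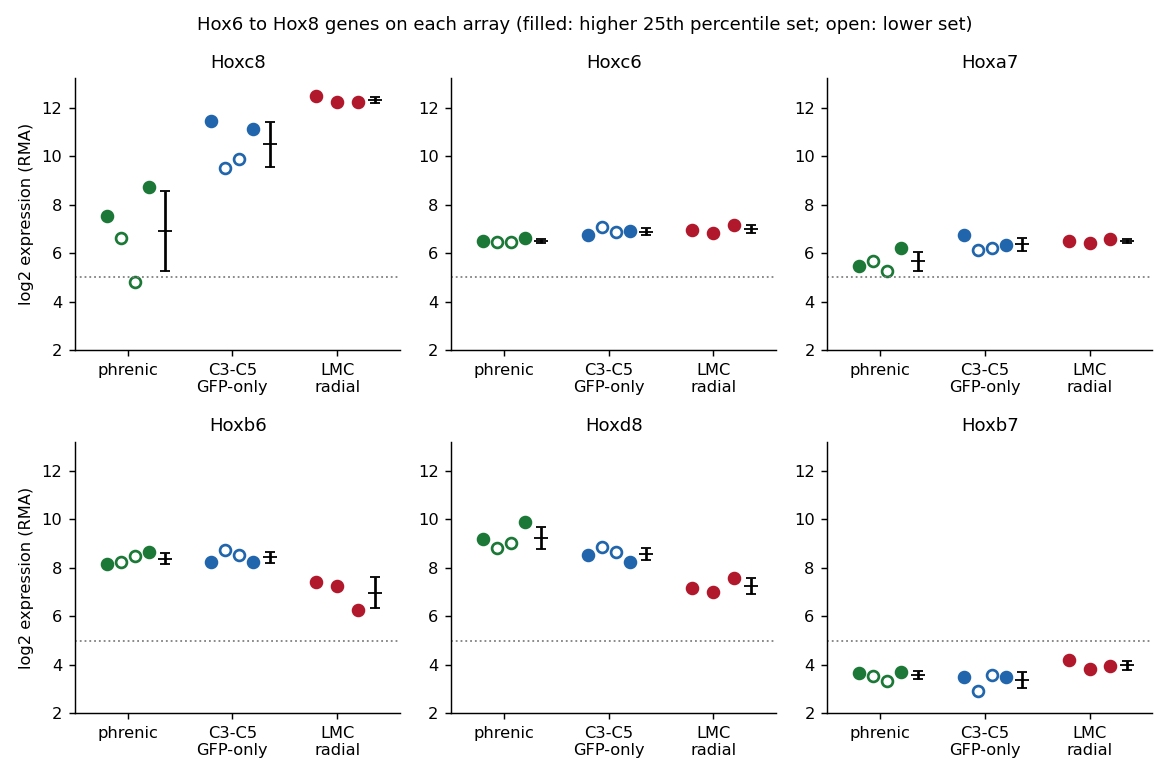
Log2 expression (vertical axis) of each measured Hox6 to Hox8 gene on the 11 arrays, by cell type, with filled points for arrays of the higher 25th percentile set, open points for the lower set, bars for the mean ± SD, and a dotted line at 5. Hoxc8 climbs from a phrenic mean of 6.92 to 12.30 in LMC radial neurons, Hoxb6 and Hoxd8 are lowest in LMC radial neurons, and Hoxb7 stays below 5 on every array.

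Hoxc6, the neighbour of Hoxc8 in its cluster, was also lowest in phrenic neurons, and the size of the difference depended on the probe set. By the brightest probe set, 1427454_at, the phrenic arrays read 6.49, 6.44, 6.47 and 6.62. The C3-C5 GFP-only arrays read 6.72, 7.06, 6.86 and 6.89, and the LMC radial arrays 6.97, 6.84 and 7.17. Every phrenic array lay below every other array, while the arrays of the other types overlapped. LMC radial minus phrenic was 0.48 ± 0.12, or 1.40-fold (adjusted p = 0.0349). Phrenic minus C3-C5 GFP-only was -0.38 ± 0.11 and did not pass (adjusted p = 0.129), nor did LMC radial minus C3-C5 GFP-only (0.11 ± 0.12, adjusted p = 0.662). The LMC radial against phrenic call was lost without C3-C5 GFP-only replicate 3 or 4, LMC radial replicate 1 or 3, or phrenic replicate 1, 2 or 3, at adjusted p from 0.0514 to 0.132. It was 0.224 within the 7 arrays of the higher set.

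The other probe sets of Hoxc6 differed more between the types. For 1427361_at the phrenic arrays read 4.07, 5.01, 5.18 and 4.25. C3-C5 GFP-only arrays read 6.15, 6.26, 6.15 and 5.72, and LMC radial arrays 6.34, 6.54 and 6.34. Every phrenic array lay below every other array, and 2 of the 4 were below 5. LMC radial minus phrenic was 1.78 ± 0.26 (adjusted p = 0.00224), and phrenic minus C3-C5 GFP-only was -1.45 ± 0.24 (adjusted p = 0.00999). Since the phrenic mean of 4.62 ± 0.55 (SD, n = 4) lies below 5, the folds are written as bounds, with values below 5 raised to 5: at least 2.57-fold and at least 2.03-fold.

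For 1427362_x_at, whose suffix Affymetrix gives to sets with probes that may bind other transcripts, the means were 6.45 ± 0.09 (SD, n = 3) for LMC radial, 6.21 ± 0.19 (n = 4) for C3-C5 GFP-only and 4.95 ± 0.50 (n = 4) for phrenic neurons. The same 2 differences were 1.51 ± 0.23 (adjusted p = 0.00344) and -1.26 ± 0.22 (adjusted p = 0.0129). LMC radial minus C3-C5 GFP-only was 0.34 ± 0.26 (adjusted p = 0.501) for 1427361_at and 0.25 ± 0.23 (adjusted p = 0.593) for 1427362_x_at. In phrenic neurons these sets ran against the array sets of Hoxc8, being higher on the lower set, at 5.09 against 4.16 for 1427361_at and 5.38 against 4.51 for 1427362_x_at. The phrenic against C3-C5 GFP-only differences within the 4 arrays of the lower set were -1.11 (adjusted p = 0.0792) and -0.87 (adjusted p = 0.102). For 1427362_x_at this call was also lost without C3-C5 GFP-only replicate 3 (adjusted p = 0.0523). With the mean of the mesenchyme markers of each array as a covariate, both calls were lost and the SE was wider. The differences were then -1.42 ± 0.39 (adjusted p = 0.2) for 1427361_at and -1.08 ± 0.35 (adjusted p = 0.297) for 1427362_x_at. With the mean of its 3 probe sets for the gene, Hoxc6 had LMC radial minus phrenic at 1.26 (adjusted p = 0.000571) and phrenic minus C3-C5 GFP-only at -1.03 (adjusted p = 0.00266).

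**Figure D2:**
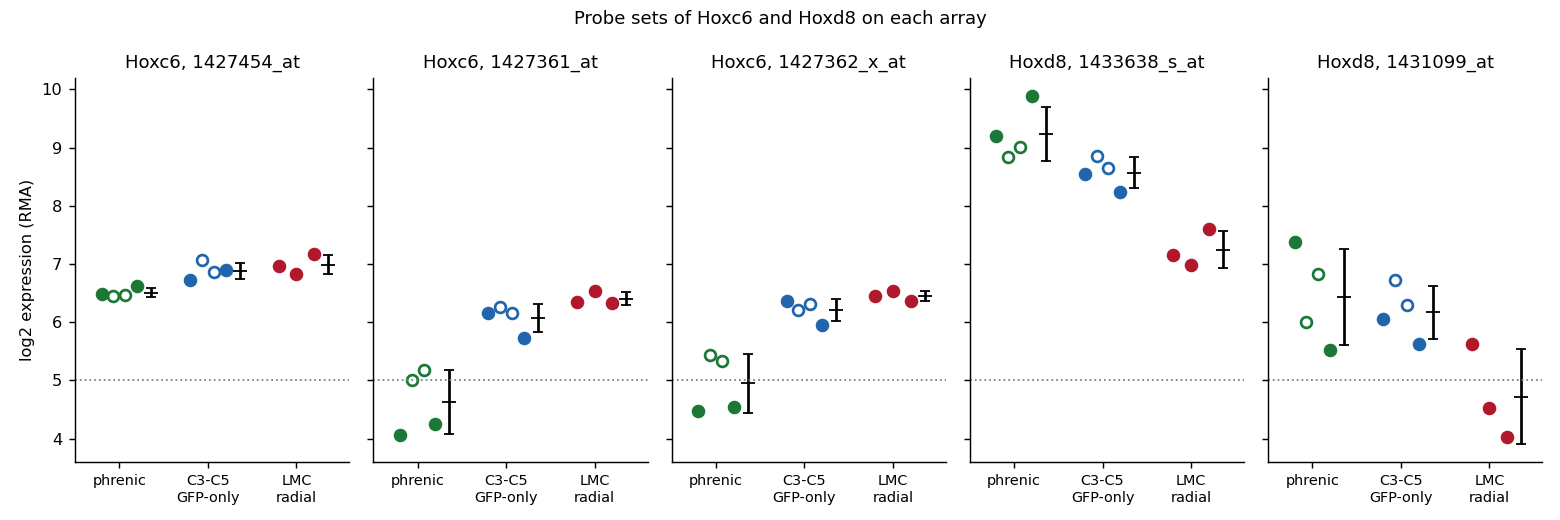
Log2 expression (vertical axis) of the 3 probe sets of Hoxc6 and the 2 of Hoxd8 on the 11 arrays, by cell type, with open points for the lower 25th percentile set, bars for the mean ± SD and a dotted line at 5. All 3 Hoxc6 sets place phrenic arrays lowest, by 0.48 for 1427454_at and by 1.78 for 1427361_at against LMC radial, and both Hoxd8 sets place the LMC radial mean lowest.

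Hoxa7, in another cluster, was lower in phrenic than in LMC radial neurons, by less than Hoxc8. The phrenic arrays read 5.47, 5.66, 5.28 and 6.20, the C3-C5 GFP-only arrays 6.73, 6.15, 6.21 and 6.34, and the LMC radial arrays 6.49, 6.40 and 6.57. Phrenic replicate 4 was the highest phrenic array for Hoxa7 as for Hoxc8, and lay above C3-C5 GFP-only replicate 2. The means were 5.65 ± 0.40 (SD, n = 4), 6.36 ± 0.26 (n = 4) and 6.49 ± 0.09 (n = 3). LMC radial minus phrenic was 0.84 ± 0.21, or 1.78-fold (adjusted p = 0.0392). Phrenic minus C3-C5 GFP-only was -0.70 ± 0.19 (adjusted p = 0.112), with -0.70 within the higher and -0.71 within the lower array set, and it passed without phrenic replicate 4 (-0.89, adjusted p = 0.0134). LMC radial minus C3-C5 GFP-only was 0.13 ± 0.21 (adjusted p = 0.773), and its sign turned within the higher array set (-0.049) and with the array set as a block (-0.051), so these types had no settled order. The call against phrenic neurons is close to the threshold, at adjusted p from 0.0537 to 0.125 without C3-C5 GFP-only replicate 2, 3 or 4, any LMC radial replicate, or phrenic replicate 1, 2 or 3. It was 0.251 within the 7 arrays of the higher set.

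Over the 11 arrays the log2 values of Hoxc8 correlated with those of Hoxa7 at r = 0.93 and with those of Hoxc6 at r = 0.80. These are descriptions of 11 arrays that fall into 3 types, and the genes share the arrays and their array sets.

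Hoxb6 showed the other direction. It was lower in LMC radial neurons than in either other type. The phrenic arrays read 8.17, 8.25, 8.50 and 8.64, the C3-C5 GFP-only arrays 8.26, 8.72, 8.52 and 8.26, and the LMC radial arrays 7.43, 7.25 and 6.25. All 3 LMC radial arrays lay below the other 8, with replicate 3 lowest, and the other 2 types overlapped throughout. The means were 8.39 ± 0.22 (SD, n = 4), 8.44 ± 0.22 (n = 4) and 6.98 ± 0.63 (n = 3). LMC radial minus phrenic was -1.41 ± 0.26, a 2.66-fold lower level (adjusted p = 0.00816). LMC radial minus C3-C5 GFP-only was -1.46 ± 0.26, 2.76-fold lower (adjusted p = 0.012). Phrenic minus C3-C5 GFP-only was -0.05 ± 0.24 (adjusted p = 0.964). Both calls held with any single array left out. Within the 7 arrays of the higher set the same differences were -1.42 (adjusted p = 0.121) and -1.28 (adjusted p = 0.269).

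Hoxd8 was lowest in LMC radial neurons. Its phrenic mean lay above its C3-C5 GFP-only mean, by a step that did not pass. By means alone this is the reverse of the order of its paralog Hoxc8. By 1433638_s_at the phrenic arrays read 9.20, 8.84, 9.01 and 9.89, the C3-C5 GFP-only arrays 8.54, 8.86, 8.66 and 8.23, and the LMC radial arrays 7.16, 6.99 and 7.60. LMC radial arrays lay below all others, and the phrenic and C3-C5 GFP-only arrays overlapped. The means were 9.23 ± 0.46 (SD, n = 4), 8.57 ± 0.26 (n = 4) and 7.25 ± 0.32 (n = 3). The suffix of this probe set is one that Affymetrix gives to probes shared by several transcripts.

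Against phrenic neurons Hoxd8 was 3.96-fold lower in LMC radial neurons (-1.98 ± 0.25, adjusted p = 0.000974), and this passed under every alternative and with any single array left out. Against C3-C5 GFP-only neurons it was 2.50-fold lower (-1.32 ± 0.25, adjusted p = 0.0176). That call was lost without C3-C5 GFP-only replicate 2 or 3 (adjusted p = 0.0597 and 0.0633) and without LMC radial replicate 1 or 2 (adjusted p = 0.0678 and 0.0732). Phrenic minus C3-C5 GFP-only was 0.66 ± 0.23 and did not pass (adjusted p = 0.223), at 1.16 within the higher and 0.17 within the lower array set. The further probe set 1431099_at had means of 4.72 ± 0.82 (SD, n = 3) for LMC radial, 6.17 ± 0.46 (n = 4) for C3-C5 GFP-only and 6.43 ± 0.83 (n = 4) for phrenic neurons. Its differences of LMC radial from phrenic (-1.71 ± 0.47, adjusted p = 0.0561) and from C3-C5 GFP-only neurons (-1.45 ± 0.47, adjusted p = 0.12) had the same sign as those of the brighter set and did not pass. Phrenic minus C3-C5 GFP-only was 0.27 ± 0.44 for this set (adjusted p = 0.889), at 0.62 within the higher and -0.089 within the lower array set. Over the 11 arrays Hoxd8 correlated with Hoxb6 at r = 0.77 and with Hoxc8 at r = -0.73, again as a description of arrays of 3 types.

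Hoxb7 was not measured above background. The phrenic arrays read 3.68, 3.56, 3.35 and 3.70, the C3-C5 GFP-only arrays 3.50, 2.91, 3.59 and 3.50, and the LMC radial arrays 4.18, 3.83 and 3.95. All lay below 5. The LMC radial arrays did not overlap the others, but the differences of 0.41 ± 0.17 from phrenic (adjusted p = 0.188) and 0.61 ± 0.17 from C3-C5 GFP-only neurons (adjusted p = 0.0805) did not pass, and no fold is given between values near background.

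Counted together, 5 of the 6 measured genes differed between LMC radial and phrenic neurons, where 6.61% of all tested probe sets did. Hoxc6, Hoxa7 and Hoxc8 were higher in LMC radial neurons (3 genes, beside 3.14% of probe sets higher) and Hoxb6 and Hoxd8 lower (2 genes, beside 3.48% lower). All 6 had arrays that did not overlap between these types, as had 18.7% of all probe sets. The count fell to 3 (Hoxb6, Hoxc8 and Hoxd8) without any one of C3-C5 GFP-only replicates 3 and 4, LMC radial replicates 1 and 3 and phrenic replicates 1, 2 and 3. Between LMC radial and C3-C5 GFP-only neurons 2 genes passed, beside 3.76% of probe sets. None was higher and Hoxb6 and Hoxd8 were lower, beside 1.88% higher and 1.88% lower. There 4 genes had arrays that did not overlap, beside 23.1% of probe sets. Between phrenic and C3-C5 GFP-only neurons 1 gene passed, Hoxc8, lower in phrenic neurons, beside 1.96% of probe sets in either direction, 0.973% higher and 0.986% lower. There 2 genes had arrays that did not overlap, beside 7.49%. The median difference over the 6 genes was 0.45, 0.12 and -0.22 in these comparisons in turn, against 0.01, 0.00 and -0.00 over all probe sets.

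**Figure D3:**
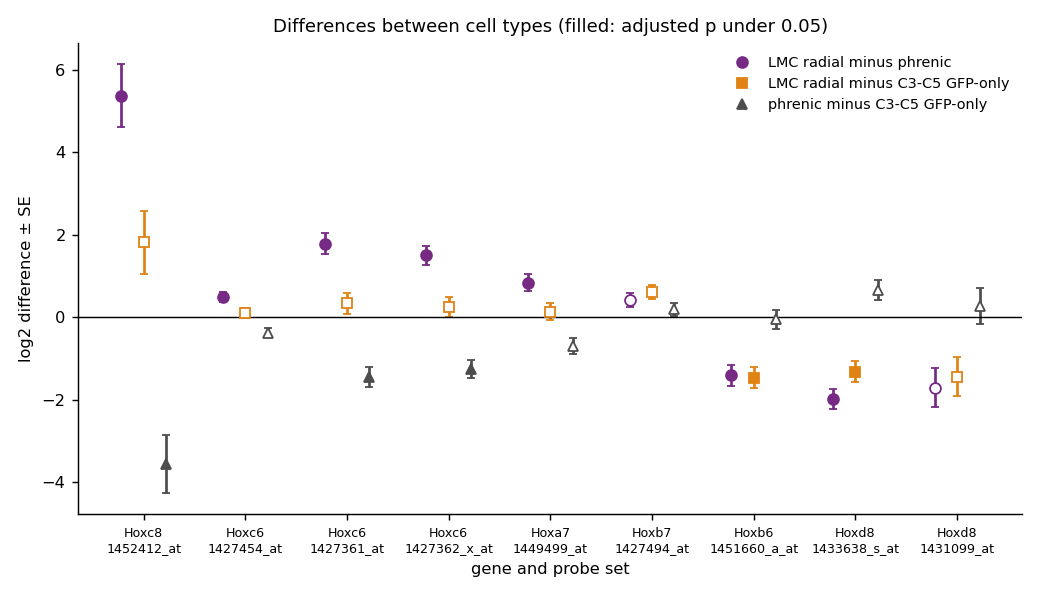
Log2 difference ± SE (vertical axis) for each of the 9 probe sets of the Hox6 to Hox8 genes in the 3 comparisons between cell types, with filled symbols where the adjusted p was under 0.05. Hoxc8 reaches 5.38 for LMC radial minus phrenic, while Hoxb6 and Hoxd8 lie below 0 against both other types.

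The study set each type against overall expression, and the nearest comparison made here sets each type against the mean of the other types. In it phrenic neurons had 4 of the 6 genes changed, beside 3.85% of probe sets (2.40% higher and 1.45% lower). Hoxd8 was higher by 1.32 ± 0.21 (adjusted p = 0.00452), and Hoxc8, Hoxa7 and Hoxc6 were lower. Of these only Hoxc8 also passed against C3-C5 GFP-only neurons alone. Hoxd8 was higher by 0.66 ± 0.23 there (adjusted p = 0.223), and was lowest in LMC radial neurons. For 2 genes every phrenic array lay beyond all other arrays, as for 3.85% of probe sets. Without any one of C3-C5 GFP-only replicates 3 and 4, LMC radial replicates 1 and 3 and phrenic replicates 1, 2 and 3, the count was 2, Hoxc8 and Hoxd8. In LMC radial neurons 3 genes changed, beside 7.02% of probe sets (3.65% higher and 3.37% lower). Hoxc8 was higher, though it did not pass against C3-C5 GFP-only neurons alone (adjusted p = 0.213). Hoxb6 (-1.44 ± 0.23, adjusted p = 0.00422) and Hoxd8 (-1.65 ± 0.22, adjusted p = 0.00168) were lower. There 4 genes had arrays beyond all others, beside 9.52% of probe sets. C3-C5 GFP-only neurons lay between the others by mean for Hoxc8, Hoxc6, Hoxa7 and Hoxd8. They had 0 of the 6 genes pass in limma, beside 0.973% of probe sets (0.691% higher and 0.282% lower). At an unadjusted p under 0.05 in limma were 2 of the 6 genes, beside 2790 of all 18193. None had arrays beyond all others, beside 2.12%. With array weights 1 passed there, Hoxb6.

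Several properties of the arrays moved with these results. Counts in the gene lists, here and below, stand beside these counts over all 18193 genes. In LMC radial against phrenic neurons 546 passed higher and 705 lower, with 4080 at an unadjusted p under 0.05 in limma. For LMC radial against C3-C5 GFP-only neurons these counts were 309, 369 and 3465. For phrenic against C3-C5 GFP-only neurons they were 260, 239 and 2741. The mean of the 11 motor neuron markers lay between 7.61 and 7.82 on LMC radial, between 8.23 and 8.37 on phrenic and between 9.20 and 9.34 on C3-C5 GFP-only arrays. It was thus lowest in the type where Hoxb6 and Hoxd8 were lowest. Of the 11 markers 6 were lower in LMC radial than in C3-C5 GFP-only neurons, and 2 were lower than in phrenic neurons, with 0 higher in either comparison. In phrenic against C3-C5 GFP-only neurons 4 were lower and 0 higher. The list includes Lhx3 and Lhx4, which mark the medial motor column, so its mean also depends on column. The part of this mean in those results was not tested. The 10 progenitor and glial markers measured of 12 had array means from 5.19 to 6.94 in phrenic, 5.08 to 5.23 in GFP-only and 5.24 to 5.77 in LMC radial samples. Over all 11 arrays the means of the other marker lists ran from 3.50 to 4.86 for endothelium, 4.12 to 5.59 for spinal interneurons, 6.08 to 6.73 for sensory neurons, 4.17 to 5.34 for skeletal muscle, 3.40 to 4.71 for macrophages or microglia and 3.31 to 7.03 for red blood cells. The 18 mesenchyme and cartilage markers had array means from 5.12 to 6.69 in phrenic, from 4.44 to 4.82 in C3-C5 GFP-only and from 4.94 to 5.95 in LMC radial samples, with 3, 8 and 6 of the 18 below 5 on every array of the type. Of these markers 3 were higher in phrenic than in C3-C5 GFP-only samples and 0 lower, with 12 at an unadjusted p under 0.05 in limma. With that mean as a covariate, the phrenic minus C3-C5 GFP-only difference of Hoxc8 was -3.67 ± 1.16 (adjusted p = 0.284), beside -3.56 ± 0.71 without it. The array means of the list did not overlap between these types, so the covariate and the type are only weakly separated. The LMC radial minus phrenic difference of Hoxc8 with the covariate was 5.41 (adjusted p = 0.00464). Hoxc6 (0.49, adjusted p = 0.0579) and Hoxa7 (0.86, adjusted p = 0.0573) no longer passed in LMC radial against phrenic neurons, nor did Hoxd8 in LMC radial against C3-C5 GFP-only neurons (-1.53, adjusted p = 0.0523).

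RNA that is degraded or copied short reads higher at the 3′ than the 5′ end of a transcript. For the Actb controls this excess was 1.06 ± 0.06 (SD, n = 3) on LMC radial, 1.53 ± 0.43 (n = 4) on C3-C5 GFP-only and 1.71 ± 0.48 (n = 4) on phrenic arrays. With it as a covariate, LMC radial minus phrenic was 4.33 (adjusted p = 0.0289) for Hoxc8 and -1.75 (adjusted p = 0.0175) for Hoxd8, while Hoxb6 (-1.17, adjusted p = 0.0958), Hoxc6 (0.56, adjusted p = 0.0893) and Hoxa7 (0.78, adjusted p = 0.209) no longer passed. Against C3-C5 GFP-only neurons neither Hoxb6 (-1.29, adjusted p = 0.067) nor Hoxd8 (-1.15, adjusted p = 0.0907) passed with this covariate.

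The Hox genes on either side of these groups place the results in the clusters. Of the Hox4 and Hox5 genes, 5 of 6 measured were lower in LMC radial than in phrenic neurons and the same number lower than in C3-C5 GFP-only neurons, with medians of -1.35 and -1.05. Between phrenic and C3-C5 GFP-only neurons none of these 6 passed in limma, with 2 at an unadjusted p under 0.05, beside 2741 of all 18193 genes. Hoxb5, which lies next to Hoxb6 in the RefSeq annotation of GRCm38.p6, fell by 1.53 ± 0.15 against phrenic neurons (adjusted p = 0.000184), beside 1.41 for Hoxb6. Also lower were Hoxb4 (-2.05 ± 0.27, adjusted p = 0.0013), Hoxa4 (-1.58 ± 0.14, adjusted p = 0.000113) and Hoxa5 (-1.16 ± 0.14, adjusted p = 0.000582). The fifth was Hoxc5, named here after its values were seen, at -0.82 ± 0.13 (adjusted p = 0.00364). Hoxc5 lies next to Hoxc6 and had the opposite sign from this neighbour.

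Of the Hox1 to Hox3 genes 1 of 7 measured was lower in LMC radial than in phrenic neurons. It was Hoxd3, of the same cluster as Hoxd8, at -2.28 ± 0.26 (adjusted p = 0.000532) beside -1.98 for Hoxd8. Hoxd4, whose paralog group falls between theirs, was not measured. Against C3-C5 GFP-only neurons Hoxd3 (-1.43 ± 0.26, adjusted p = 0.0152) and Hoxa2 (-1.09 ± 0.22, adjusted p = 0.0213) were lower. The Hoxd3 call was lost without 3 single arrays in turn (highest adjusted p = 0.0666) and the Hoxa2 call without 4 (highest adjusted p = 0.0791).

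Of the Hox9 to Hox13 genes 3 of 14 measured were higher in LMC radial than in phrenic neurons and 0 lower, and 11 of the 14 were below 5 on all arrays. Hoxc9, the neighbour of Hoxc8 on its other side, was clear on LMC radial arrays (9.29 ± 0.24, SD, n = 3) and near background on C3-C5 GFP-only (4.67 ± 0.49, n = 4) and phrenic arrays (4.24 ± 0.26, n = 4). It was at least 19.6-fold higher in LMC radial than in phrenic neurons (adjusted p = 1.43e-06). Against C3-C5 GFP-only neurons it was at least 19.0-fold higher (adjusted p = 1.59e-05). Unlike Hoxc8, Hoxc9 was near background in C3-C5 GFP-only neurons, at -0.43 ± 0.23 for phrenic minus C3-C5 GFP-only (adjusted p = 0.492). Hoxa9, which follows Hoxa7, was higher by 2.50 ± 0.51 in LMC radial than in phrenic neurons (adjusted p = 0.0159), and lost its call without either of 2 arrays (highest adjusted p = 0.0685). The third was Hoxd10 (0.64 ± 0.16, adjusted p = 0.0393), below 5 on every array, which lost its call without 9 single arrays in turn (highest adjusted p = 0.138). Hoxb9, named here after its values were seen, was above 5 on every array and had the other sign. Its means were 8.31 in phrenic, 8.68 in C3-C5 GFP-only and 7.76 in LMC radial neurons. LMC radial minus phrenic was -0.55 ± 0.37 (adjusted p = 0.423), and LMC radial minus C3-C5 GFP-only was -0.91 ± 0.37 (adjusted p = 0.203).

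By cluster, and over all paralog groups, LMC radial against phrenic neurons had 3 HoxC genes higher and 1 lower of 7 measured. The HoxB cluster had 0 higher and 3 lower of 9 in limma. In the HoxA cluster 2 of 9 were higher and 2 lower, and in the HoxD cluster 1 of 8 was higher and 2 lower. These are counts only, and the difference between clusters was not tested. Of 13 noncoding RNAs of the clusters 2 were measured, Hoxb5os at -1.06 ± 0.56 for LMC radial minus phrenic (adjusted p = 0.297) and Hoxa11os below 5 on every array.

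**Figure D4:**
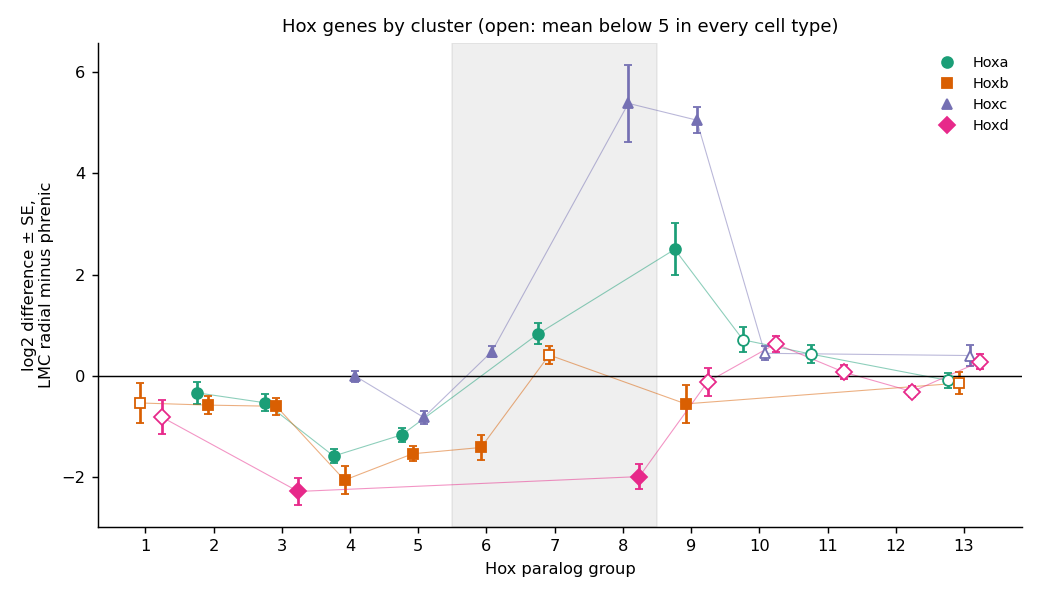
Log2 difference ± SE of LMC radial minus phrenic (vertical axis) for every measured Hox gene, by paralog group (horizontal axis) and cluster (symbol and colour, with a thin line joining its genes), with open symbols for genes whose mean lay below 5 in every cell type and groups 6 to 8 shaded. Within the shaded groups Hoxc8 lies at 5.38 and Hoxd8 at -1.98, while the measured Hox4 and Hox5 genes lie at or below 0 and Hoxc9 lies at 5.05.

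Hox proteins bind DNA with cofactors of the Pbx, Meis and Pknox families. Of 8 cofactor genes measured, 1 was higher and 0 lower in LMC radial than in phrenic neurons, and 0 were higher and 2 lower in phrenic than in C3-C5 GFP-only neurons. Meis1 was 3.09-fold lower in phrenic than in C3-C5 GFP-only neurons (-1.63 ± 0.26, adjusted p = 0.00824). Meis3 was lower there too (-0.74 ± 0.10, adjusted p = 0.00345), and higher in LMC radial than in phrenic neurons (0.50 ± 0.11, adjusted p = 0.021). The Meis3 difference from LMC radial was lost without 4 single arrays in turn (highest adjusted p = 0.0774). Pknox2 was lower in LMC radial than in C3-C5 GFP-only neurons (-1.06 ± 0.21, adjusted p = 0.0232), a call lost without 3 single arrays in turn (highest adjusted p = 0.0713). Pbx3 did not pass, at -0.30 ± 0.09 for LMC radial minus phrenic (adjusted p = 0.0696).

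Retinoic acid, Cdx proteins and growth factors are known to set Hox expression along the cord. Of 12 such upstream genes measured, 1 was higher and 0 lower in LMC radial than in phrenic neurons. It was Aldh1a2, a retinoic acid synthesis enzyme, at 1.53 ± 0.16 (adjusted p = 0.000228), and Aldh1a2 was lower in phrenic than in C3-C5 GFP-only neurons (-1.23 ± 0.14, adjusted p = 0.00136). Rarb, a retinoic acid receptor, was lower in phrenic (-0.96 ± 0.20, adjusted p = 0.0343) and in LMC radial (-0.92 ± 0.21, adjusted p = 0.0415) than in C3-C5 GFP-only neurons. Cyp26b1, which degrades retinoic acid, was lower in LMC radial than in C3-C5 GFP-only neurons (-1.40 ± 0.33, adjusted p = 0.0446). The Rarb calls were lost without 7 and 9 single arrays in turn (highest adjusted p = 0.107 and 0.14) and the Cyp26b1 call without 8 (highest adjusted p = 0.153). Cdx4 was below 5 on every array. It passed as higher in LMC radial than in C3-C5 GFP-only neurons, and lost that call without 5 single arrays in turn (highest adjusted p = 0.1). Of the 12 genes 1 was thus higher and 2 lower in that comparison. In phrenic against C3-C5 GFP-only neurons 0 were higher and 2 lower.

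Polycomb and trithorax proteins keep Hox genes silent or active. None of 29 measured passed between LMC radial and phrenic neurons in limma, with 4 at an unadjusted p under 0.05, beside 4080 of all 18193 genes. Bmi1, a Polycomb subunit, was the 1 gene that passed between phrenic and C3-C5 GFP-only neurons (-0.57 ± 0.12, adjusted p = 0.0448), and it lost the call without 9 single arrays in turn (highest adjusted p = 0.141). Ezh2, the Polycomb methyltransferase, was at 0.40 ± 0.12 for LMC radial minus phrenic (adjusted p = 0.0698).

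Genes of the limb motor columns and pools known to act below Hox proteins were measured in full, 21 of 21. In LMC radial against phrenic neurons 11 were higher and 3 lower, with a median of 0.84. Over all 18193 genes 546 were higher and 705 lower there. Phrenic against C3-C5 GFP-only neurons had 2 higher and 7 lower, beside 260 and 239 of all genes. LMC radial against C3-C5 GFP-only neurons had 0 higher and 2 lower, beside 309 and 369. In that last comparison 12 were at an unadjusted p under 0.05 in limma, beside 3465 of all genes. Cdh7, a cadherin, was low in phrenic neurons alone of the 3 types. It was higher by 3.70 ± 0.32 in LMC radial than in phrenic neurons (adjusted p = 6.97e-05) and in C3-C5 GFP-only than in phrenic neurons (adjusted p = 9.68e-05), with a difference of 0.01 ± 0.32 between LMC radial and C3-C5 GFP-only neurons (adjusted p = 0.99). Met, the hepatocyte growth factor receptor, and Pou3f1 were lower in LMC radial than in phrenic neurons, with differences of -3.88 ± 0.29 (adjusted p = 2.86e-05) and -2.61 ± 0.14 (adjusted p = 2.85e-06). Aldh1a2, above, is in this list as well.

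The genes whose log2 values ran most like those of a Hox6 to Hox8 gene over the 11 arrays were sought among 1214 to 1215 genes (the number leaves out the gene itself where it qualified) with type means at least 1 apart. For Hoxc8 they were Lhx1os, a noncoding transcript named for its place beside Lhx1 (r = 0.971), Grp, gastrin-releasing peptide (r = 0.969), and Lmo3, a LIM-only protein (r = 0.963). Hoxa7 was matched best by Hoxc8 itself (r = 0.934), then by Gfra1, which binds the growth factor GDNF (r = 0.922), and Fzd1, a Wnt receptor (r = 0.917). For Hoxc6 the nearest were Slit1, a guidance ligand (r = 0.920), Ephx2, an epoxide hydrolase (r = 0.919), and Bcl11b, a zinc-finger transcription factor (r = 0.917). Ephx2 had means below 5, near background, in phrenic (3.51) and C3-C5 GFP-only neurons (4.92), and Grp in phrenic neurons (4.47).

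The genes lower in LMC radial neurons had other partners. Hoxb6 ran most like Igfbp5, an insulin-like growth factor binding protein (r = 0.959), Pgap1 (r = 0.955) and Prickle2, a planar polarity protein (r = 0.954). Hoxd8 ran most like Nectin3, an adhesion protein (r = 0.949), Hoxb4 (r = 0.948) and Dnal1, a dynein light chain (r = 0.936). All of these are correlations over arrays of 3 types that share a library each, given as a description.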

How the data were processed

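RNA of 11 sorted motor neuron samples was measured on 1 array each. The deposited values are log2 expression per probe set, made with RMA per the submitters' processing notes. Its version is not given in the sources used here. In RMA the probes are corrected for background, put on common quantiles and then combined into 1 value per set, which compresses small values. Of 45101 probe sets 64 controls were left out. Of the other 45037, 34945 had 1 gene symbol, 932 several and 9160 none.

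The fit had one mean per cell type, made with limma 3.58.1 in R 4.3.3 (8 residual and 2.92 prior degrees of freedom), with two-sided p-values adjusted by Benjamini and Hochberg over all probe sets of each of 6 comparisons. The fit was tested on simulated data. The rule for named genes took every member and all its probe sets, up to 4 genes with the smallest p from each other list, and the 3 genes most correlated with each member that passed. The members and the 19 lists were chosen with earlier results of these data known. Arrays were compared with their replicates by Dixon's ratio (0.829 for 4 arrays). Alternatives were other scalings, filters and fits, and leaving out each array. The fits by array set, the array set as a block, and the Actb and mesenchyme covariates were chosen after seeing the data. The number of arrays limits the precision. Deviations from the type means correlated over 0.1 in all 4 same-numbered phrenic and C3-C5 GFP-only pairs (r from 0.13 to 0.22). Of the 12 pairs of these types with other numbers 4 were also over 0.1, and they ran from -0.25 to 0.28. Of the 11 arrays examined, 0 had as best match in each other type the array of their own number. The numbers are therefore not shown to pair these types, and no label states a shared litter or batch. None of the 6 same-numbered pairs with LMC radial arrays was over 0.1.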

Additional observations from a re-analysis of the deposited data

Results flagged for a closer look

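The Hoxb7 value of C3-C5 GFP-only replicate 2 stood far from its replicates. It was 2.91 on the log2 scale against 3.50, 3.59 and 3.50, and its gap to the nearest of them was 0.874 of the range of the 4 arrays. All 4 values lie below 5, near background. Among the 18 groups of 4 arrays examined, chance alone sets about 1 in 20 apart in this way.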

How the results depend on the processing

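Hoxc8 and Hoxd8 in LMC radial against phrenic neurons kept their direction and passed under every alternative and with any 1 array left out, Hoxc8 with differences from 4.17 to 5.98. Over all alternatives the differences of the 6 genes kept direction and side of the threshold in 371 cases, lost the call in 51, gained one in 5 and changed sign in 5, all 5 of values that never passed. These were Hoxa7 in LMC radial against C3-C5 GFP-only neurons, at -0.049 within the 7 arrays of the higher set and -0.051 with the array set as a block, and Hoxb6 in phrenic against C3-C5 GFP-only neurons, at 0.14 within the 7 arrays, 0.040 without C3-C5 GFP-only replicate 2 and 0.019 without phrenic replicate 1 (from -0.14 to 0.040 over all arrays left out in turn). Every called difference of these genes kept its sign under quantile normalization and centring. Their causes were not tested.

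The count of the 6 genes passing for LMC radial against phrenic neurons (5) became 2 within the 7 arrays, 2 with the Actb covariate, and 3 each with the array set as a block, a fit of 2 types only, the mesenchyme covariate, and a variance prior with trend and robust fitting, and 3 to 5 with 1 array left out. For LMC radial against C3-C5 GFP-only neurons (2) it became 0 within the 7 arrays, 0 with the Actb covariate, 0 with values below 5 raised to 5, 1 with the mesenchyme covariate and 4 with array weights, and 1 to 2 with 1 array left out. For phrenic against C3-C5 GFP-only neurons (1) it became 0 within the 4 arrays of the lower set, 0 in a fit of 2 types, 0 with the mesenchyme covariate, 0 with values raised to 5 and 2 with gene means, and 0 to 2 with 1 array left out. Against the mean of the others, phrenic neurons (4) gave 2 within the 7 arrays, 2 with the Actb covariate, 1 with the mesenchyme covariate and 2 to 4 with 1 array left out. LMC radial neurons (3) gave 1 with the Actb covariate and 2 to 4, and C3-C5 GFP-only neurons (0) gave 1 with array weights.

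Over all probe sets the LMC radial against phrenic total of 2979 became 778 within the 7 arrays, 1026 with the Actb covariate, 1410 in a fit of 2 types and 1046 with values raised to 5, and 1678 to 4266 with 1 array left out. The LMC radial against C3-C5 GFP-only total of 1694 became, for the same settings, 98, 550, 3676 and 382, with 840 for the array set block, 6685 for array weights, 971 without dim probe sets, 608 for the mesenchyme covariate and 606 to 2654. The phrenic against C3-C5 GFP-only total of 882 became 159 within the 4 arrays, 127 within the 7, 243 with the mesenchyme covariate and 516 with values raised to 5, and 458 to 1240. Against the mean of the others, the phrenic total of 1733 became 511 within the 7 arrays, 915 with the mesenchyme covariate, 1035 with values raised to 5 and 1202 to 2368. The LMC radial total of 3163 became 551, 860 with the Actb covariate, 1550 with the set block, 6864 with array weights, 1835 without dim probe sets, 782 with values raised to 5 and 1573 to 4746. The C3-C5 GFP-only total of 438 became 24, 1758 with array weights, 81 with the mesenchyme covariate, 200 with values raised to 5 and 119 to 654.

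Centring each array on its median raised the share of calls that were higher from 47.4% to 60.9% in LMC radial against phrenic neurons, where quantile normalization gave 57.5%. With the replicate block, phrenic against C3-C5 GFP-only neurons kept 1 of the 6 genes (Hoxc8, adjusted p = 0.0108) and 862 probe sets passing. No call of the 6 genes changed there. By the labels, samples of different types share only a number, in this comparison as in those with LMC radial neurons. With the same block Hoxc6 was at 0.50 in LMC radial against phrenic neurons (adjusted p = 0.058), with 4 of the 6 genes and 3537 probe sets passing. No scanner values were used here, so other background corrections and a slide block were not run.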
